A study of Mus musculus with 6 samples.

Results

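The 44 genes described here encode the machinery with which the intestine handles foreign compounds. They are cytochromes P450 and their reductase, epoxide hydrolases, conjugating enzymes, carboxylesterases, alcohol and aldehyde dehydrogenases, efflux pumps and the 3 receptors that switch many of them on. They were listed by name, with earlier results of these data known, and all 44 were found among the 46078 genes of the deposited count tables and passed the filter on low counts. RNA was sequenced from adenomas of the small intestine of mice aged 18 weeks on a C57BL6/SV129 background. The knockout group held 3 miR-34a/b/c-/-;ApcMin/+ mice, which lack the microRNAs miR-34a, miR-34b and miR-34c, and the wild-type group held 3 miR-34a/b/c+/+;ApcMin/+ mice. All 6 mice carried ApcMin on 1 chromosome, a truncating allele of the Wnt pathway brake Apc from which intestinal adenomas arise. RNA of 3 adenomas of a mouse was combined into 1 library, so the mouse is the replicate. Normal mucosa was not analysed here, so the values are levels in adenoma tissue, and the comparison asks which of these transcripts differ when the 3 microRNAs are missing.

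Foreign compounds that enter an enterocyte, the absorptive cell of the villus, are typically oxidised by a P450, then joined to glucuronate, sulfate or glutathione, and pumped back to the lumen or on to the blood. The aryl hydrocarbon receptor senses planar aromatic ligands, while the pregnane X receptor and the constitutive androstane receptor sense drugs, steroids and bile acids, and each raises transcription of its own set of enzymes and pumps. In the normal small intestine most of these enzymes are made by differentiated villus cells of the upper bowel, and crypt cells make less.

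The microRNAs that the knockout removes act through their seed, bases 2 to 8, which pairs with sites in the 3′ UTR of a target. The mature sequences below are shown because they define which members could be direct targets, with the seed in capitals (RefSeq, GRCm38.p6). The other member of the family is miR-34c-5p.
miR-34a-5p: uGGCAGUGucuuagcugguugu
miR-34b-5p: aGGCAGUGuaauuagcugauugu
The seed is the same in both. A site was counted where the UTR held CACTGCC, which pairs with bases 2 to 8, or ACTGCCA, which pairs with bases 2 to 7 and ends in an A opposite base 1. At least 1 such site was present in the longest annotated 3′ UTR of 4 of the 44 members (9.09%), against 3348 of 14685 tested genes that have an annotated 3′ UTR (22.8%). The members' 3′ UTRs were shorter, with a median of 497 bases against 1141 bases. The 4 sites, from GENCODE M21 transcripts, follow as 30-base windows with the match in capitals.
Cyp2j6 site: ttgaccaatgtCACTGCCAgcaaggggcag
Gsto1 site: ctaacagtcttCACTGCCAtccccaaggcc
Abcc2 site: tactgagccgtCACTGCCcaaccagagctg
Nr1i3 site: actcgccatcaaACTGCCAtgtcaggaact
Cyp2j6 (chromosome 4) and Gsto1 (chromosome 19) carry both sets of letters (an 8mer) and Abcc2 (chromosome 19) the first alone (a 7mer-m8), so 3 members match the whole seed, while Nr1i3 (chromosome 1) has the second alone (a 7mer-A1). Their log2 fold changes, knockout over wild-type, were -0.10 for Cyp2j6, -0.53 for Gsto1, -0.11 for Abcc2 and -0.49 for Nr1i3, and none passed the test described below.

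Library totals were 26375035, 33153025 and 38354355 counts in knockout replicates 1 to 3, and 31340618, 33492834 and 37396224 counts in wild-type replicates 1 to 3. Mir34a, Mir34b and Mir34c had 0 counts in all 6 libraries, wild-type included, so their short precursors do not check the genotype labels. On the first principal component of all genes (40.8% of the variance), knockout replicate 2 scored 27.1 while knockout replicates 1 and 3 scored -53.0 and -49.2, and the wild-type libraries scored -0.3, 58.5 and 16.9. Knockout replicate 2 and wild-type replicate 3 were the only male mice by Xist and Y-linked counts. The summed level of 8 pan-epithelial genes (keratins, claudins, Epcam, Cdh1 and Elf3) was 12005, 12590.5 and 10200.3 CPM (library-size-scaled counts, with TMM library sizes) in knockout and 12388, 11712 and 14951 CPM in wild-type adenomas. The 6 ileum markers summed to 113, 142 and 128 CPM in knockout and 149, 139 and 144 CPM in wild-type adenomas. Over the 6 libraries Gata5 had 16029 counts, Slc51a 9698, Slc51b 1200, Slc10a2 276, Fabp6 30 and Fgf15 3. Of the 8 hepatocyte markers, Fga and Fgb were at 0 and Serpina1a had 2 counts, and the list summed to between 6.4 and 34.3 CPM in knockout and between 7.1 and 26.6 CPM in wild-type adenomas. Most of the counts were of Alb, except that Tat exceeded it in knockout replicate 2 (4.59 against 0.891 CPM) and wild-type replicate 2 (3.33 against 2.48 CPM).

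No xenobiotic member differed between knockout and wild-type adenomas at an adjusted p below 0.05 (edgeR quasi-likelihood test, Benjamini-Hochberg adjustment over 17254 genes, lowest adjusted p = 0.793). Over all genes tested, 0.0406% were called higher and 0.0522% lower in knockout. DESeq2 and limma-voom also called 0 members. At an unadjusted p below 0.05 DESeq2 had 5 members, against 7.0% of all genes, and limma-voom had 2, against 5.99% of all genes. At an unadjusted p below 0.05 edgeR had 4 members, all lower in knockout (Mgst1, Cyp1a1, Mgst2 and Cyp2c55), and 0 higher, where 2.58% of all genes were lower and 3.27% higher by that rule. The log2 fold change was below 0 for 36 of the 44 members, against 48.9% of all genes, and its median was -0.28 over the members and 0.007 over all genes. Scaled to the pan-epithelial genes instead, which moved the median of all genes to 0.171, the members' median was -0.10 and 26 members were below 0. In pooled tumor tissue, fewer cells of a type and less RNA per cell cannot be told apart.

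**Figure D1:**
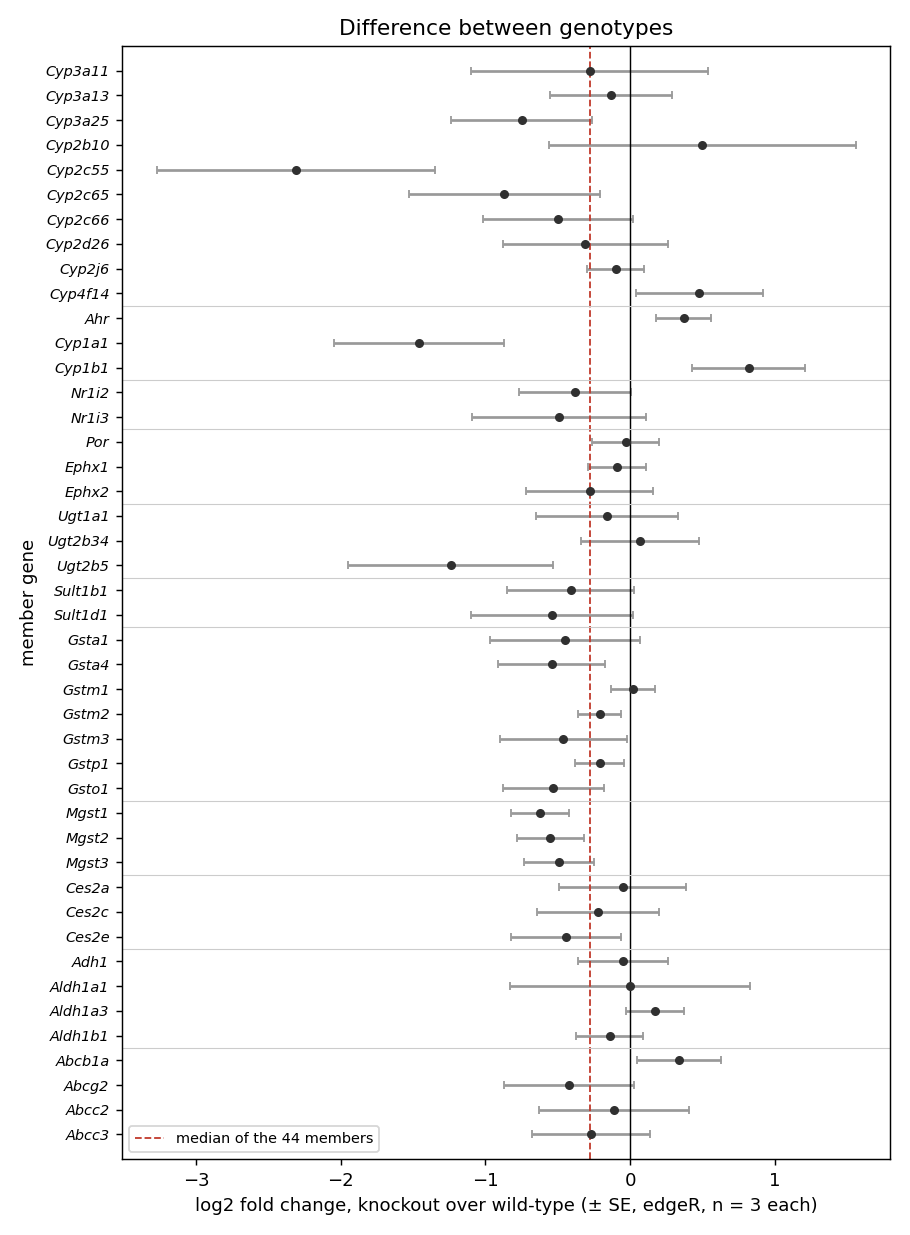
Log2 fold change of each member, knockout over wild-type, with its standard error (edgeR, 3 mice per genotype), in 11 functional classes from P450s at the top to efflux pumps at the bottom. The dashed line is the members' median of -0.28, and the widest bars belong to Cyp2b10 and Cyp2c55.

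The members varied more between mice than most genes did. Their median coefficient of variation was 55.3% among knockout and 27.8% among wild-type mice, against 19.2% (knockout) and 15.8% (wild-type) over all genes tested. The highest library exceeded the lowest by a median factor of 3.11 for the members and 1.73 for all genes. That factor was under 2 for 10 members, among them Ahr, Por, Ephx1, Gstm1, Gstm2 and Gstp1, and 5 or more for 8 members, with 20.8 for Cyp2c55, 14.4 for Cyp2b10 and 10.8 for Aldh1a1.

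The order of libraries was shared by many members. Summed over the 44 genes, the level was 3611, 7853 and 4231 CPM in knockout replicates 1 to 3 and 4805, 6179.9 and 7342 CPM in wild-type replicates 1 to 3. Knockout replicate 2 was therefore above every wild-type library and the other knockout libraries were below them all. Knockout replicate 2 was the highest knockout library for 37 members, knockout replicate 3 for 6 (Cyp2j6, Cyp1b1, Gstm1, Mgst1, Ces2a and Aldh1a1) and knockout replicate 1 for Aldh1a3 alone. Among wild-type mice, replicate 3 was highest for 28 members, replicate 2 for 9 and replicate 1 for 7. Knockout replicate 2 and wild-type replicate 3 were the 2 highest of all 6 libraries for 20 members (45.5%), against 10% of all genes.

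**Figure D2:**
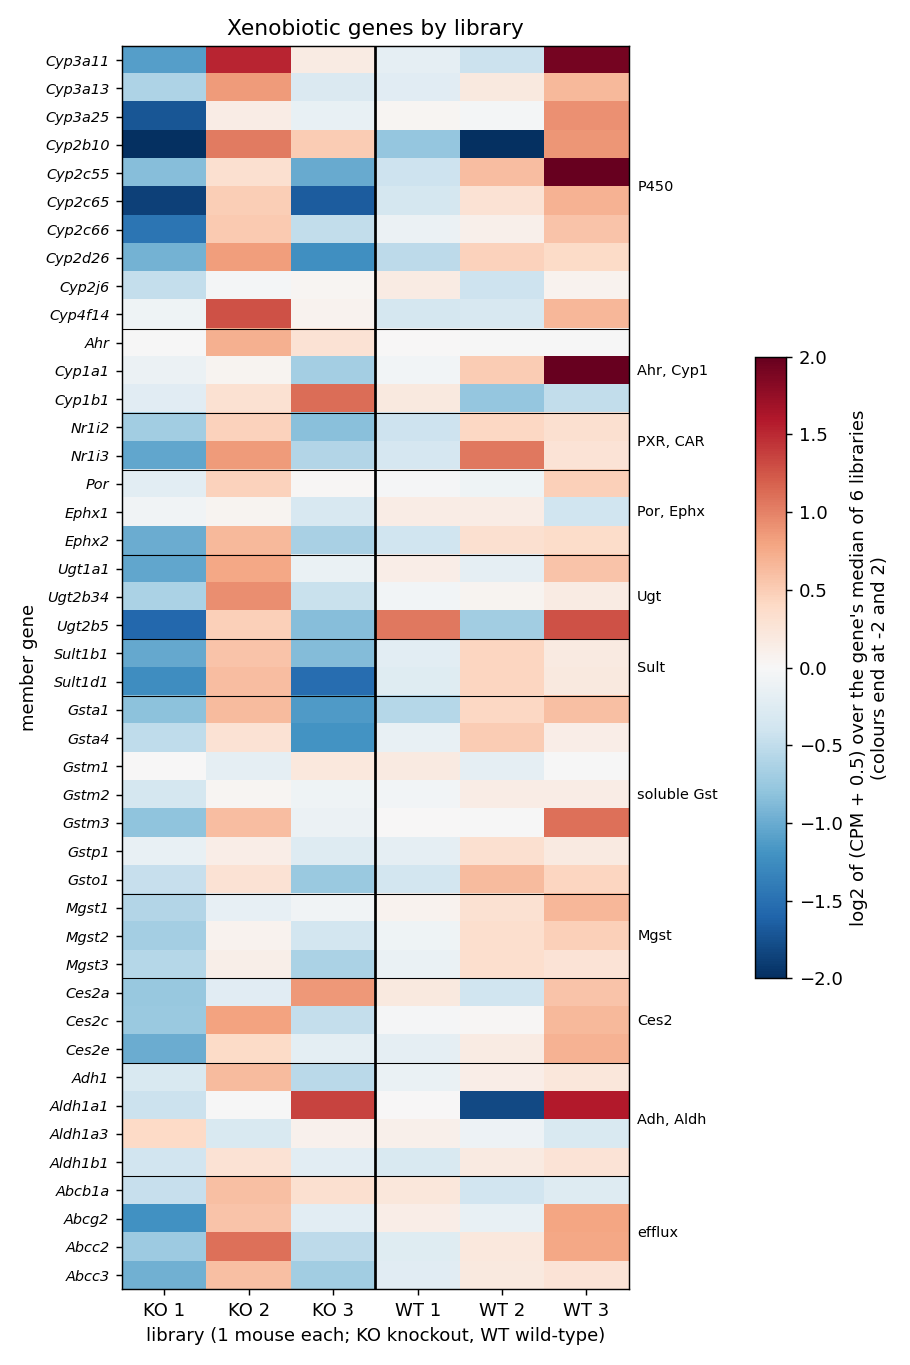
Level of each member in each library, as log2 of (CPM + 0.5) over the gene's median of the 6 libraries, knockout mice on the left and wild-type mice on the right. The columns of knockout replicates 1 and 3 are mostly blue (low), and those of knockout replicate 2 and wild-type replicate 3 mostly red (high).

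Markers of cell states also differed between the libraries. The 20 mature enterocyte genes, such as Alpi, Sis and Vil1, summed to 10777, 27212 and 14036 CPM in knockout adenomas and 15607, 14516 and 22405 CPM in wild-type adenomas, and their maximum lay in knockout replicate 2 for 10 genes and in wild-type replicate 3 for 9. The 8 genes of the proximal small intestine, of which Lct, Slc2a2 and Apoa4 are also in the enterocyte list, summed to 2761, 8655 and 3271 CPM in knockout adenomas and 3232, 6252 and 6945 CPM in wild-type adenomas. The 10 crypt base and adenoma genes, such as Lgr5, Axin2 and Notum, were lowest in knockout replicate 2, with 1831, 761 and 1884 CPM in knockout adenomas and 1507, 1032 and 1179 CPM in wild-type adenomas. Fibroblast genes summed to 1413, 701 and 2624 CPM in knockout adenomas and 1003, 424 and 1285 CPM in wild-type adenomas, smooth muscle genes to 628, 546 and 523 CPM (knockout) against 471, 203 and 364 CPM (wild-type), and endothelial genes to 361, 311 and 433 CPM (knockout) against 291, 215 and 236 CPM (wild-type). Lymphocyte genes summed to 252, 745 and 680.1 CPM in knockout adenomas and 908, 1369 and 1160.2 CPM in wild-type adenomas. Goblet cell genes summed to 5251, 8638 and 4312 CPM in knockout adenomas and 6380.2, 6993 and 7929 CPM in wild-type adenomas, macrophage genes to 114, 120.4 and 170 CPM (knockout) against 102, 130.2 and 147 CPM (wild-type), and pancreatic acinar genes, nearly all from Cela1, to 123, 39.4 and 130 CPM (knockout) against 133, 104 and 89.6 CPM (wild-type). The other acinar genes had few counts, mostly in knockout replicate 1 (239 of the 258 of Ctrb1 and 51 of the 53 of Prss2). Paneth cell genes summed to 1427, 986 and 1996 CPM in knockout adenomas and 681, 678 and 804 CPM in wild-type adenomas, and tuft cell genes to 265, 205 and 299.7 CPM (knockout) against 284, 177 and 239.7 CPM (wild-type). Most of the tuft sum was Avil, with 181, 148 and 233 CPM in knockout adenomas and 234, 143 and 177 CPM in wild-type adenomas. Of the 6 tuft genes, 4 did not overlap and were higher in knockout (Trpm5, Pou2f3, Gfi1b and Rgs13), against 5.86% of all genes. Gfi1b had 77 counts over the 6 libraries. The sums did not overlap between genotypes for the Paneth, smooth muscle and endothelial lists (higher in knockout) and the lymphocyte list (lower in knockout). The lymphocyte sum was nearly all Jchain, with 245, 725 and 668 CPM in knockout adenomas and 889, 1342 and 1137 CPM in wild-type adenomas. Among the other lymphocyte genes, Trac and Ms4a1 did not overlap (lower in knockout), and the groups overlapped for Cd3e, Cd3d and Cd79a. All 6 genes of each of the Paneth, tuft, smooth muscle and endothelial lists had a log2 fold change above 0. So had 7 of the 8 fibroblast genes and 9 of the 10 crypt base and adenoma genes. All 6 lymphocyte genes tested were below 0, while among the mature enterocyte genes 10 were above and 10 below 0. Over all genes tested, 48.9% were below 0. No gene of the 15 marker lists was called by edgeR, and DESeq2 called 3 of them, and 0.638% of all genes. These were Ang4, a Paneth cell antimicrobial ribonuclease (log2 fold change 2.73 ± 0.65, adjusted p = 0.763 by edgeR and 0.000653 by DESeq2), Rgs13 of tuft cells (1.21 ± 0.23, adjusted p = 0.429 by edgeR and 0.0002 by DESeq2) and Cd14 of macrophages (-0.56 ± 0.12, adjusted p = 0.553 by edgeR and 0.0132 by DESeq2). Cd14 was 1 of 2 macrophage genes with a log2 fold change below 0, and the other 5 were above 0. The part of these marker differences in the members' levels was not tested.

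**Figure D3:**
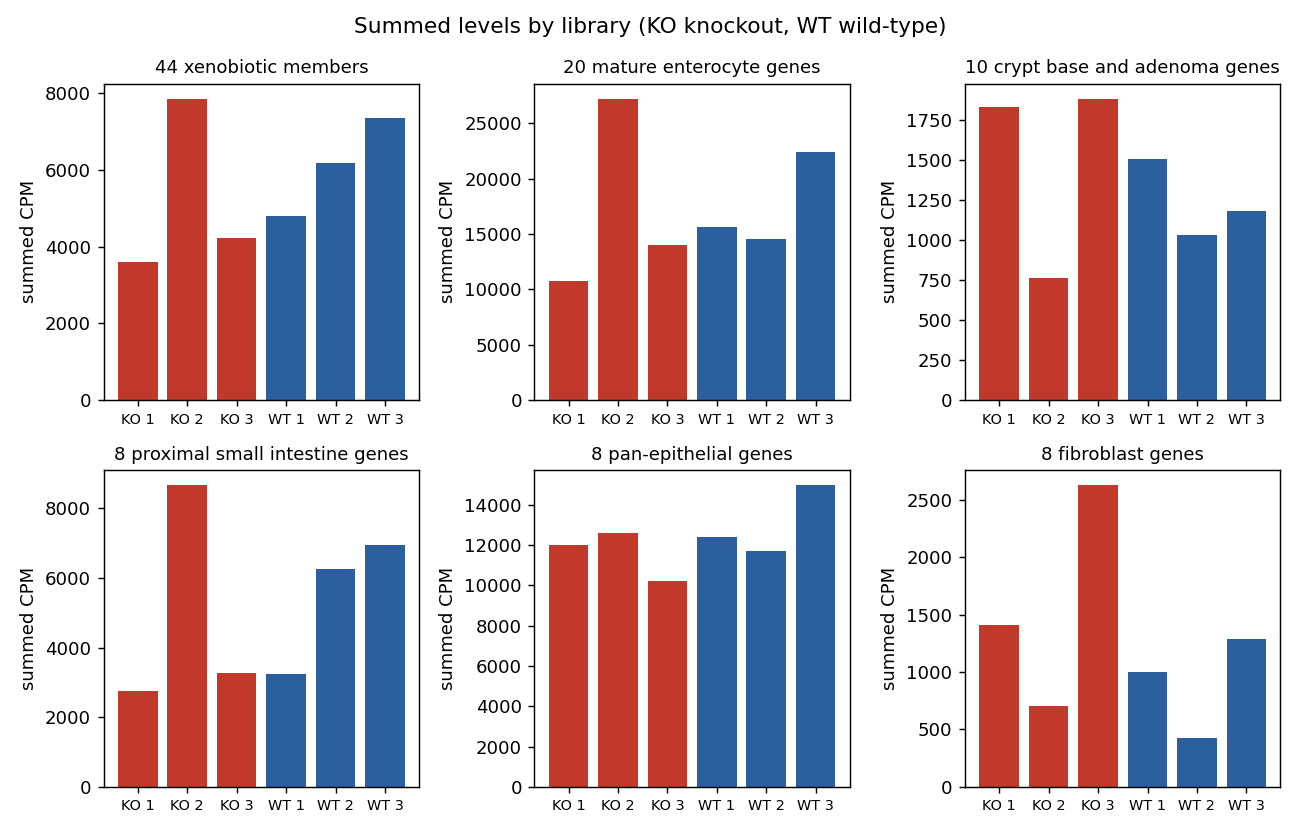
Summed level in CPM, per library, of the 44 members and of 5 marker lists, with knockout mice left of wild-type mice (red and blue bars). The members' sum is highest in knockout replicate 2 (7853 CPM), as are the mature enterocyte and the proximal sums, and the crypt base and adenoma sum is lowest there (761 CPM).

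The size of the difference depended on knockout replicate 2. Without it, the members' median log2 fold change was -0.80 and 37 members were below 0. Then 21 of the 44 had an unadjusted p below 0.05, all of them lower in knockout, against 9.39% of the genes tested in that fit, and 0 passed the adjusted threshold, which 0.174% of all genes passed on the lower side. The lowest adjusted p was 0.0548 for Sult1d1 (log2 fold change -1.54 ± 0.22, SE, edgeR), followed by Sult1b1 (-1.10 ± 0.20) and Cyp2c65 (-2.06 ± 0.33), both at 0.0971. Knockout replicates 1 and 3 both lay below all 3 wild-type libraries for 28 members (63.6%), against 19.7% of all genes, and both lay above them for 0 members, against 20.4% of all genes. Knockout replicate 2 was the highest knockout library for 37 members, so setting it aside lowers their knockout means. These shares are therefore a description and give no support for a difference. Setting aside this male mouse also keeps the male wild-type replicate 3, so sex is not balanced between the genotypes in these comparisons. Leaving out another mouse gave a median of -0.06 (knockout replicate 1), -0.15 (knockout replicate 3), -0.46 (wild-type replicate 1), -0.25 (wild-type replicate 2) or -0.16 (wild-type replicate 3). In the same order, 26, 31, 36, 37 and 26 members were below 0. Members with an unadjusted p below 0.05 (edgeR) then numbered 3, 1, 5, 4 and 0. Over all genes tested in those fits the counts were 795 of 17723, 543 of 17697, 1177 of 17776, 540 of 17653 and 1051 of 17780. With sex as a term in the fit the median was -0.40, 8 members had an unadjusted p below 0.05, against 6.55% of all genes in that fit, and 0 were called.

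Levels of different genes are compared per kilobase of exon. Over the 6 libraries the highest means were those of Gsto1 (272 CPM per kb), Gsta1 (202), Mgst3 (192), Gsta4 (169), Cyp3a13 (156), Adh1 (126) and Ces2e (122 CPM per kb). The 4 highest of them all encode glutathione S-transferases. The lowest means were those of Nr1i3 (1.98 CPM per kb), Cyp1a1 (2.1), Cyp2c55 (2.76) and Ugt1a1 (3.20 CPM per kb).

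The aryl hydrocarbon receptor Ahr (ENSMUSG00000019256, chromosome 12, 35497974 to 35535038, coordinates in mm10 here and below) had 37.4, 62.2 and 46.1 CPM in knockout adenomas and 38.0, 37.3 and 37.4 CPM in wild-type adenomas. The wild-type mice were almost identical, and knockout replicate 1 lay among them. The means were 48.6 ± 12.6 CPM (knockout) and 37.6 ± 0.389 CPM (wild-type), with SD and n = 3 each here and below, and the log2 fold change was 0.37 ± 0.19 (SE, edgeR adjusted p = 0.793). Cyp1a1, the P450 most closely tied to this receptor (ENSMUSG00000032315, chromosome 9, 57697613 to 57703822), had 3.38, 3.86 and 2.13 CPM in knockout adenomas and 3.57, 5.47 and 16.6 CPM in wild-type adenomas. Wild-type replicate 3 stood apart and the other 5 libraries overlapped. With means of 3.12 ± 0.891 CPM (knockout) and 8.56 ± 7.06 CPM (wild-type), its log2 fold change was -1.46 ± 0.59 (edgeR adjusted p = 0.793), and -0.53 without wild-type replicate 3. Cyp1b1, the other receptor-driven P450 of this class (ENSMUSG00000024087, chromosome 17, 79706953 to 79715041), had 39.1, 56.4 and 100.3 CPM in knockout adenomas and 52.4, 26.5 and 32.3 CPM in wild-type adenomas, with overlap between the groups. Its log2 fold change was 0.82 ± 0.39, the highest of all members (edgeR adjusted p = 0.793). Cyp1a1 and Cyp1b1 thus had log2 fold changes of opposite sign, neither past the threshold. Knockout replicate 3, the library highest for Cyp1b1, was also the highest in the summed fibroblast genes (2624 CPM), and the part of that in the Cyp1b1 level was not tested.

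The pregnane X receptor Nr1i2 (ENSMUSG00000022809, chromosome 16, 38248323 to 38294824) had 44.2, 99.4 and 40.0 CPM in knockout adenomas and 54.0, 95.6 and 89.9 CPM in wild-type adenomas. Knockout replicate 2 was the highest of all 6 and the other knockout mice were the lowest. The means of 61.2 ± 33.1 CPM (knockout) and 79.9 ± 22.5 CPM (wild-type) gave a log2 fold change of -0.38 ± 0.39 (edgeR adjusted p = 0.840). The constitutive androstane receptor Nr1i3 (ENSMUSG00000005677, chromosome 1, 171213970 to 171220701) had 3.31, 13.7 and 4.75 CPM in knockout adenomas and 5.71, 15.9 and 9.0 CPM in wild-type adenomas, for a log2 fold change of -0.49 ± 0.60 (edgeR adjusted p = 0.864). Its level is uncertain, because 74.9% of its exon bases are shared with Tomm40l on the opposite strand, and Tomm40l had 2763 counts in all against 1719 for Nr1i3, while no source says whether strand was used in counting.

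Among the 10 drug-metabolising P450s, 8 had a log2 fold change below 0 and 2 above, with a median of -0.29. Cyp3a13, the most abundant per kb and a member of the CYP3A subfamily that oxidises a wide range of drugs (ENSMUSG00000029727, chromosome 5, 137892932 to 137921619), had 263, 729 and 331 CPM in knockout adenomas and 344, 464 and 634 CPM in wild-type adenomas. The groups overlapped through knockout replicate 2, and with means of 441 ± 251 CPM (knockout) and 481 ± 146 CPM (wild-type) the log2 fold change was -0.13 ± 0.42 (edgeR adjusted p = 0.955). Its sign turned to 0.14 without knockout replicate 1, to 0.04 without knockout replicate 3 and to 0.13 without wild-type replicate 3. Its relative Cyp3a11, the classical target of the pregnane X receptor in mouse liver, had 21.7, 136 and 52.9 CPM in knockout adenomas and 41.5, 35.1 and 179 CPM in wild-type adenomas, so that only knockout replicate 2 and wild-type replicate 3 exceeded 100 CPM. Cyp3a25 had 15.8, 59.0 and 48.0 CPM in knockout adenomas and 54.3, 51.8 and 99.9 CPM in wild-type adenomas.

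Cyp2c55, a mouse P450 that oxidises arachidonic acid (ENSMUSG00000025002, chromosome 19, 39007019 to 39042693), had the lowest log2 fold change of all members. It had 1.20, 3.33 and 1.03 CPM in knockout adenomas and 1.80, 4.18 and 21.5 CPM in wild-type adenomas. Wild-type replicate 3 held most of its counts, and knockout replicate 2 lay between wild-type replicates 1 and 2. With means of 1.85 ± 1.28 CPM (knockout) and 9.15 ± 10.7 CPM (wild-type), its log2 fold change was -2.31 ± 0.96 (edgeR adjusted p = 0.793), and -0.69 without wild-type replicate 3. Its neighbours Cyp2c65 and Cyp2c66 are 96.4% identical to each other over 1613 bases, so their counts are uncertain. Cyp2c65 had 20.2, 105 and 23.2 CPM in knockout adenomas and 58.6, 91.2 and 122 CPM in wild-type adenomas, and Cyp2c66 had 2.71, 12.2 and 5.75 CPM in knockout adenomas and 7.63, 8.96 and 12.6 CPM in wild-type adenomas. For both, knockout replicates 1 and 3 were the 2 lowest of the 6.

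Cyp2b10, the classical target of the constitutive androstane receptor in mouse liver, had 1.80, 23.9 and 16.4 CPM in knockout adenomas and 6.46, 1.67 and 21.6 CPM in wild-type adenomas, without any order by genotype (log2 fold change 0.50 ± 1.06). Cyp4f14, which hydroxylates fatty acids and vitamin E at the end of the chain, had 152, 388 and 169 CPM in knockout adenomas and 125, 128 and 255 CPM in wild-type adenomas (log2 fold change 0.48 ± 0.44, edgeR adjusted p = 0.827). Cyp2d26, a P450 of the CYP2D subfamily, had 63.4, 218 and 52.0 CPM in knockout adenomas and 85.2, 169 and 159 CPM in wild-type adenomas. Cyp2j6 was the steadiest P450, with 129 ± 23.3 CPM in knockout adenomas and 138 ± 28.1 CPM in wild-type adenomas.

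Por and the epoxide hydrolases had log2 fold changes between -0.28 and -0.03. Por, the reductase that passes electrons to all microsomal P450s (ENSMUSG00000005514, chromosome 5, 135670033 to 135735326), had 281, 449 and 333 CPM in knockout adenomas and 319.7, 309 and 453 CPM in wild-type adenomas, for a log2 fold change of -0.03 ± 0.23 (edgeR adjusted p = 0.983). Its groups overlapped, and its sign turned under 2 scalings and when wild-type replicate 3 or either knockout replicate 1 or 3 was left out. Ephx2, the soluble epoxide hydrolase (ENSMUSG00000022040, chromosome 14, 66084377 to 66124500), had 86.4, 269.5 and 109.9 CPM in knockout adenomas and 130.1, 214 and 222 CPM in wild-type adenomas, with knockout replicate 2 above and the other knockout mice below every wild-type mouse. Its means were 155 ± 99.6 CPM (knockout) and 189 ± 51.0 CPM (wild-type), with a log2 fold change of -0.28 ± 0.44 (edgeR adjusted p = 0.894). Ephx1, the microsomal epoxide hydrolase, had 22.5 ± 3.07 CPM in knockout adenomas and 23.9 ± 5.0 CPM in wild-type adenomas.

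Glucuronosyltransferases attach glucuronate to phenols, steroids and bilirubin. Ugt2b34 (ENSMUSG00000029260, chromosome 5, 86889767 to 86906937), the most abundant of the 3 per kb, had 205, 604 and 234 CPM in knockout adenomas and 306, 331 and 358 CPM in wild-type adenomas. The wild-type mice lay close together, between the low and the high knockout mice, and the means of 348 ± 223 CPM (knockout) and 332 ± 25.8 CPM (wild-type) gave a log2 fold change of 0.07 ± 0.41 (edgeR adjusted p = 0.976). Without knockout replicate 2 it was -0.59 ± 0.14. Ugt2b5 (ENSMUSG00000054630, chromosome 5, 87124960 to 87140318) had 1.94, 9.53 and 3.50 CPM in knockout adenomas and 14.5, 3.96 and 17 CPM in wild-type adenomas, for a log2 fold change of -1.24 ± 0.71 (edgeR adjusted p = 0.802), and the groups overlapped at knockout replicate 2 and wild-type replicate 2. Ugt2b5 is 95.5% identical over 1861 bases to Ugt2b38, which had 931 counts over the 6 libraries. Ugt1a1, the bilirubin transferase, had 6.72 ± 4.35 CPM in knockout adenomas and 7.53 ± 2.11 CPM in wild-type adenomas. It shares 58.9% of its exon bases with the other first-exon variants of the Ugt1a locus, whose main product here was Ugt1a7c (22638 counts against 1432), so reads from the shared exons cannot be assigned to 1 of them.

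Sulfotransferases move a sulfate group onto phenols and catecholamines. Sult1b1 (ENSMUSG00000029269, chromosome 5, 87513339 to 87538195) had 88.3, 268 and 98.5 CPM in knockout adenomas and 155, 243 and 204 CPM in wild-type adenomas, with means of 151 ± 101 CPM (knockout) and 201 ± 43.9 CPM (wild-type) and a log2 fold change of -0.41 ± 0.44 (edgeR adjusted p = 0.846). Its neighbour Sult1d1 (ENSMUSG00000029273, chromosome 5, 87554645 to 87569027) had 54.0, 198 and 44.6 CPM in knockout adenomas and 109, 173 and 148 CPM in wild-type adenomas, with means of 98.8 ± 85.9 CPM (knockout) and 143 ± 32.2 CPM (wild-type) and a log2 fold change of -0.54 ± 0.56 (edgeR adjusted p = 0.844). In both genes knockout replicate 2 was highest, with the 3 wild-type mice next and the other knockout mice lowest.

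Glutathione S-transferases couple electrophiles to glutathione, and 6 of the 7 soluble members had a log2 fold change below 0 (median -0.45). Gsto1, the omega class enzyme that also reduces dehydroascorbate (ENSMUSG00000025068, chromosome 19, 47854970 to 47864790), had 385, 650 and 317 CPM in knockout adenomas and 414, 821 and 715 CPM in wild-type adenomas. Knockout replicate 2 lay between wild-type replicates 1 and 3, and with means of 451 ± 176 CPM (knockout) and 650.3 ± 211 CPM (wild-type) the log2 fold change was -0.53 ± 0.35 (edgeR adjusted p = 0.808). Gsta1 had 163 ± 115 CPM in knockout adenomas and 223 ± 84.1 CPM in wild-type adenomas. Gsta4, which clears the lipid peroxidation product 4-hydroxynonenal, had 174 ± 87.8 CPM in knockout adenomas and 253 ± 58.5 CPM in wild-type adenomas. Gstm3 had 23.3 ± 11.4 CPM in knockout adenomas and 32.1 ± 15.5 CPM in wild-type adenomas. The remaining 3 were steady, with means of 43.4 CPM (knockout) and 42.8 CPM (wild-type) for Gstm1, 17.8 CPM (knockout) and 20.7 CPM (wild-type) for Gstm2, and 93.9 CPM (knockout) and 108 CPM (wild-type) for Gstp1. Gstp1 is 98.2% identical over 707 bases to Gstp2, and Gsta1 at least 95% identical to Gsta2, Gm3776 and Gm10639, so reads could be split between them.

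The 3 microsomal glutathione S-transferases, membrane enzymes of glutathione and leukotriene chemistry, had log2 fold changes between -0.62 and -0.49 and held 2 of the 4 members with an unadjusted p below 0.05. Mgst1 (ENSMUSG00000008540, chromosome 6, 138140316 to 138156755) had 61.9, 82.9 and 89.0 CPM in knockout adenomas and 97.9, 115 and 148 CPM in wild-type adenomas. It was the only member whose groups did not overlap, with every knockout mouse below every wild-type mouse, as was the case for 5.34% of all genes, and 5.86% had every knockout mouse above. The means of 77.9 ± 14.2 CPM (knockout) and 120.1 ± 25.3 CPM (wild-type) gave a log2 fold change of -0.62 ± 0.20 (unadjusted p = 0.0173, edgeR adjusted p = 0.793), which stayed between -0.76 and -0.45 with 1 mouse left out. Mgst2, which can also form leukotriene C4, had 62.5, 106 and 78.3 CPM in knockout adenomas and 95.3, 127 and 139.8 CPM in wild-type adenomas, where knockout replicate 2 lay above wild-type replicate 1 (log2 fold change -0.55 ± 0.23, edgeR adjusted p = 0.793). Mgst3, the most abundant of the 3 per kb (ENSMUSG00000026688, chromosome 1, 167371966 to 167393841), had 147, 237 and 141 CPM in knockout adenomas and 199, 274 and 264 CPM in wild-type adenomas. Its means of 175 ± 53.8 CPM (knockout) and 246 ± 40.6 CPM (wild-type) gave a log2 fold change of -0.49 ± 0.24 (edgeR adjusted p = 0.793).

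Carboxylesterases of the Ces2 family hydrolyse ester and amide drugs. Ces2e (ENSMUSG00000031886, chromosome 8, 104926260 to 104934672) had 157, 409 and 274 CPM in knockout adenomas and 276, 351 and 509 CPM in wild-type adenomas, with means of 280 ± 126 CPM (knockout) and 379 ± 119 CPM (wild-type) and a log2 fold change of -0.44 ± 0.38 (edgeR adjusted p = 0.822). Knockout replicate 2 was again inside the wild-type range and knockout replicates 1 and 3 were below it. Ces2c had 69.0 ± 42.7 CPM in knockout adenomas and 80.3 ± 22.1 CPM in wild-type adenomas. Ces2a departed from that order, with 22.9, 33.1 and 71.6 CPM in knockout adenomas and 44.7, 29.5 and 58.0 CPM in wild-type adenomas, so that knockout replicate 3 was the highest of the 6.

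Dehydrogenases of alcohols and aldehydes had the class median nearest to 0 (-0.03). Adh1, which oxidises ethanol and retinol (ENSMUSG00000074207, chromosome 3, 138260991 to 138290698), had 221, 423 and 188 CPM in knockout adenomas and 247, 297 and 318 CPM in wild-type adenomas. The wild-type values lay between knockout replicate 2 and the other knockout mice, the means were 277 ± 128 CPM (knockout) and 287 ± 36.6 CPM (wild-type), and its log2 fold change, -0.05 ± 0.31 (edgeR adjusted p = 0.976), turned positive when wild-type replicate 3 or either knockout replicate 1 or 3 was left out. Aldh1a3, a retinaldehyde dehydrogenase (ENSMUSG00000015134, chromosome 7, 66390892 to 66427517), had nearly the reverse order of mice, with 138, 84.9 and 112 CPM in knockout adenomas and 113, 98.2 and 85.3 CPM in wild-type adenomas. Knockout replicate 2 and wild-type replicate 3 were the lowest here, and the log2 fold change was 0.17 ± 0.20 (edgeR adjusted p = 0.856). Aldh1a1, the related retinaldehyde dehydrogenase, ranged widely, with 38.9, 52.4 and 136 CPM in knockout adenomas and 53.2, 14.8 and 159 CPM in wild-type adenomas (log2 fold change 0.00 ± 0.83). Mitochondrial Aldh1b1 had 141 ± 35.3 CPM in knockout adenomas and 155 ± 31.3 CPM in wild-type adenomas.

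Of the 4 efflux pumps, Abcb1a, which encodes P-glycoprotein of the luminal membrane (ENSMUSG00000040584, chromosome 5, 8660077 to 8748575), had 95.3, 199 and 164 CPM in knockout adenomas and 153, 100 and 109 CPM in wild-type adenomas. Knockout replicate 1 was the lowest of the 6 mice and the groups overlapped, with means of 153 ± 52.9 CPM (knockout) and 120.5 ± 28.4 CPM (wild-type) and a log2 fold change of 0.34 ± 0.29 (edgeR adjusted p = 0.822). Abcc3, the pump of the blood-facing membrane (ENSMUSG00000020865, chromosome 11, 94343295 to 94392997), had 85.2, 254 and 103 CPM in knockout adenomas and 143, 190 and 202 CPM in wild-type adenomas, for a log2 fold change of -0.27 ± 0.41 (edgeR adjusted p = 0.887). Abcc2, its counterpart of the luminal membrane, had 84.9, 303 and 97.9 CPM in knockout adenomas and 120, 163 and 243 CPM in wild-type adenomas. Abcg2, the breast cancer resistance protein of the same membrane, had 20, 69.5 and 40.5 CPM in knockout adenomas and 51.3, 42.3 and 80.9 CPM in wild-type adenomas. Knockout replicates 1 and 3 were below every wild-type mouse for Abcc2, Abcc3 and Abcg2, but not for Abcb1a.

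**Figure D4:**
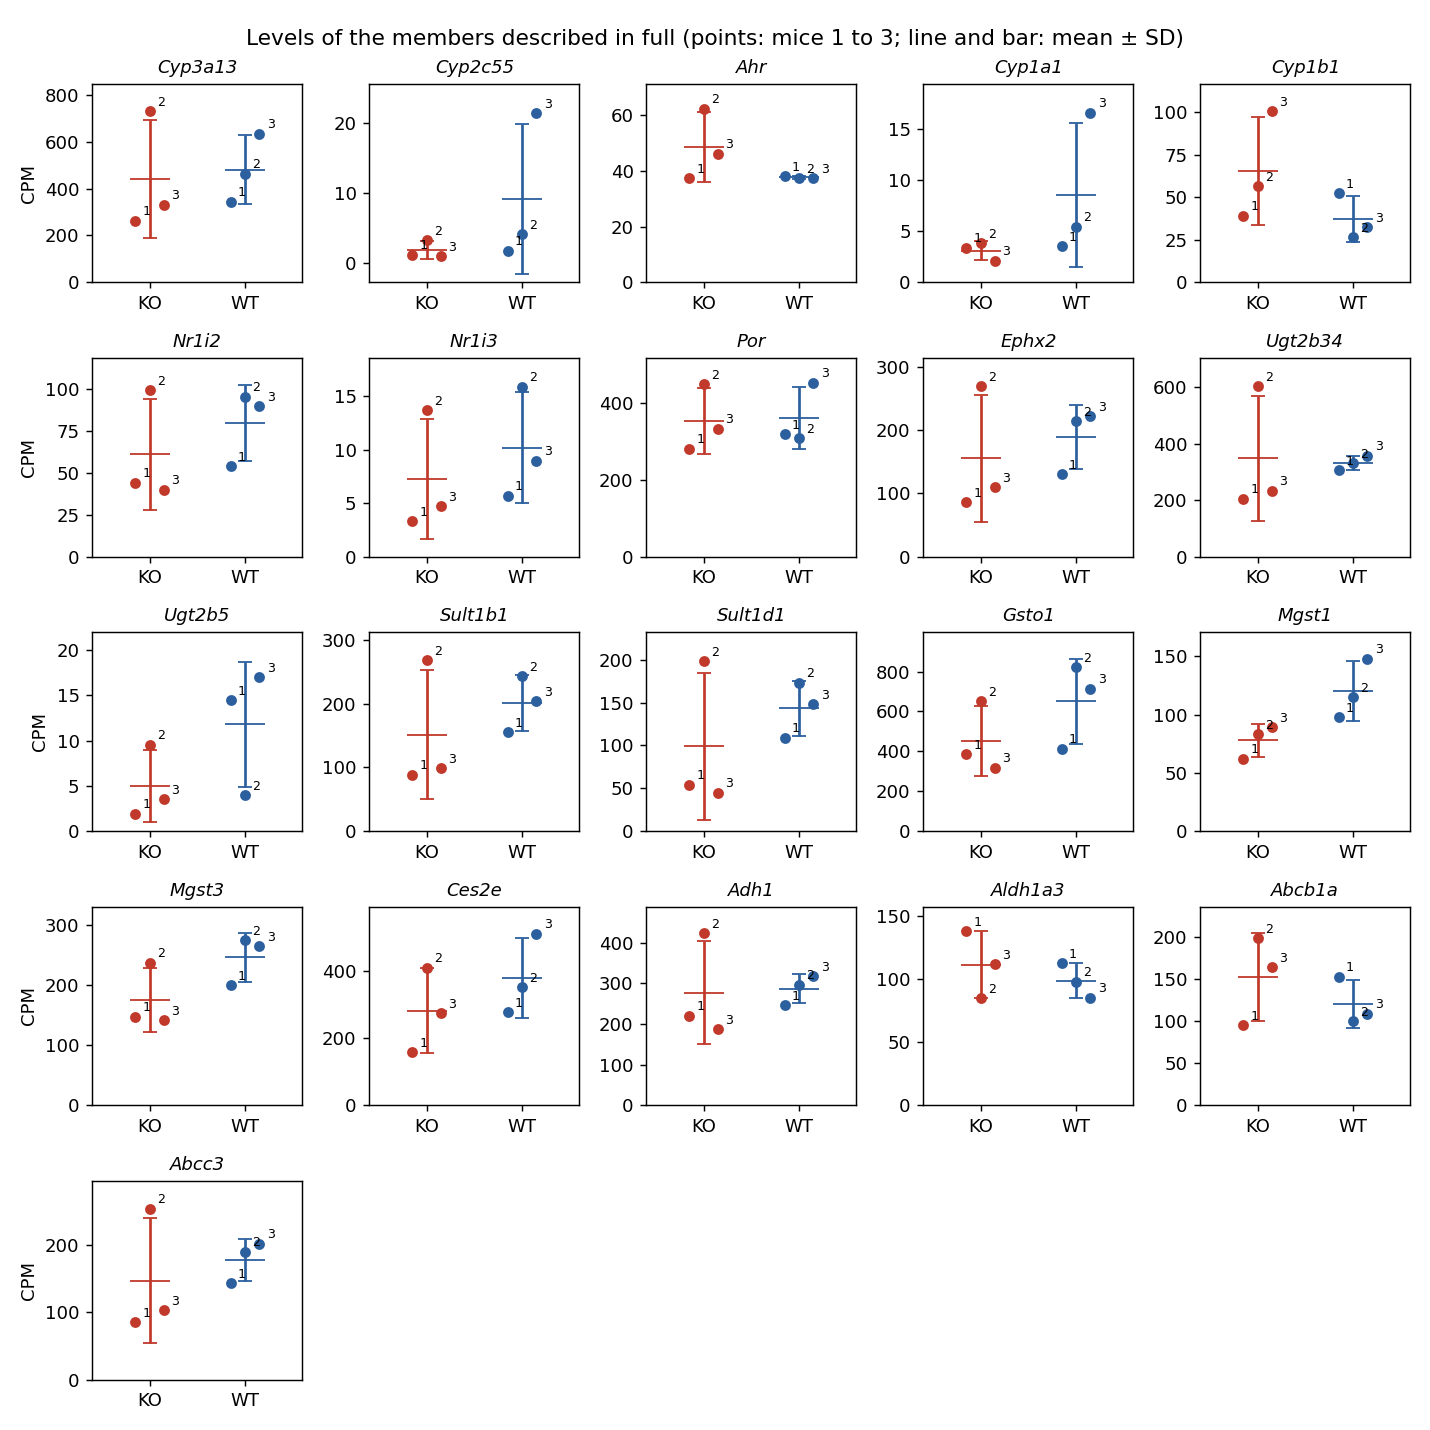
Levels in CPM of the 21 members described in full, with 1 point per mouse numbered by replicate and the mean ± SD of 3 mice as line and bar, knockout (red) left of wild-type (blue). Mgst1 is the only panel in which the points of the genotypes do not overlap, and knockout replicate 2 lies above the other knockout points in most panels.

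Promoters of the members were read for the motifs of factors that act on these genes. RefSeq start sites (GRCm38.p6, 250 bases before to 50 after) were at hand for 39 of the 44 members. The letters searched, on both strands, were GCGTG for the core of the xenobiotic response element of the aryl hydrocarbon receptor, TGACNNNGC for the core of the antioxidant response element of NRF2, CAAAGTNCA for HNF4, a factor of enterocytes and hepatocytes, TTTATNG for CDX factors and AGGTCA for the half-site of nuclear receptors, none of which contains another. TNGCGTG, a longer form of the first, was also searched. The promoters of Cyp1a1 and Mgst1 are shown because these genes are 2 of the 4 members with an unadjusted p below 0.05, with the GCGTG match of Cyp1a1 and the reverse complement of TGACNNNGC in Mgst1 in capitals. Mgst1 has another RefSeq start, whose promoter (chr6:138141337-138141636) holds no match to TGACNNNGC and is not shown.
Cyp1a1 promoter, chr9:57697363-57697662, plus strand: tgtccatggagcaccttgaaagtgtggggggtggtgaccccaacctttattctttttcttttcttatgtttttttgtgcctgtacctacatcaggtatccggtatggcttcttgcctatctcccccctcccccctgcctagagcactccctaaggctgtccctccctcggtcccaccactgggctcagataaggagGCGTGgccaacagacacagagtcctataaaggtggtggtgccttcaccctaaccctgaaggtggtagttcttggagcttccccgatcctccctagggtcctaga
Mgst1 promoter, chr6:138140277-138140576, plus strand: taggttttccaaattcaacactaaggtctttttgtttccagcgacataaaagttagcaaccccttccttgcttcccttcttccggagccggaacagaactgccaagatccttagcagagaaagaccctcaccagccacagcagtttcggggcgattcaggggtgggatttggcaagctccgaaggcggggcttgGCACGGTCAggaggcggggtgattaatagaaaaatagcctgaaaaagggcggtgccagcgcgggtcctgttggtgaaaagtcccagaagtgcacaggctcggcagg
GCGTG was present in 12 of the 39 members (30.8%) and in 35.2% of the promoters of 27025 genes, TGACNNNGC in 7 (17.9% against 14.0%), TTTATNG in 3 (7.69% against 12.5%) and AGGTCA in 8 (20.5% against 18.1%). The longer TNGCGTG was present in 1 member, Sult1d1 (2.56% against 5.84%), so the Cyp1a1 promoter holds the core without the longer form. CAAAGTNCA was present in 5 members (12.8%) and in 1.64% of all promoters. Its 5 matches are shown as 30-base windows, read along the gene's strand, with the match in capitals.
Cyp3a11 HNF4 match, chr5:145879945-145879974, minus strand: gaagagagtacCAAAGTCCAgtgatgcaaa
Cyp2c65 HNF4 match, chr19:39060879-39060908, plus strand: cgatgttggaaCAAAGTCCActgggaggag
Cyp2d26 HNF4 match, chr15:82794285-82794314, minus strand: aaggcagagaaCAAAGTGCAgccttcccct
Sult1b1 HNF4 match, chr5:87536179-87536208, minus strand: agtgagcaggcCAAAGTCCAttcctggtgg
Abcb1a HNF4 match, chr5:8566901-8566930, plus strand: tcacttcagcaCAAAGTTCAcatgaaactc
The Abcb1a match lies at a RefSeq start upstream of the gene's deposited interval. That of Sult1b1 begins at base 26 after a RefSeq start inside the gene's deposited interval. A match is a description of the letters and not of binding. Hnf4a itself had 634 ± 189 CPM in knockout adenomas and 722 ± 89.5 CPM in wild-type adenomas (log2 fold change -0.19, not called). Of the 5 genes with the match, Cyp3a11, Cyp2c65, Cyp2d26 and Sult1b1 had log2 fold changes of -0.28, -0.87, -0.31 and -0.41, and Abcb1a had 0.34.

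A further 123 genes of the same pathways were listed by function, and 98 of them passed the count filter. None was called by edgeR (lowest adjusted p = 0.763), 4 had an unadjusted p below 0.05, all lower in knockout, where 2.58% of all genes were, and 71 of the 98 had a log2 fold change below 0, against 48.9% of all genes, with a median of -0.22. DESeq2 called 1 of them, Cyp4f15, and 0.638% of all genes. Cyp4f15, a P450 of fatty acid hydroxylation, had 0.599, 1.12 and 1.44 CPM in knockout adenomas and 2.33, 3.58 and 3.44 CPM in wild-type adenomas, without overlap (log2 fold change -1.55 ± 0.39, adjusted p = 0.763 by edgeR and 0.0368 by DESeq2). Ces2b, another Ces2 carboxylesterase, had 2.96, 5.84 and 3.14 CPM in knockout adenomas and 10.9, 6.0 and 9.03 CPM in wild-type adenomas (log2 fold change -1.12 ± 0.36, edgeR adjusted p = 0.793). Its groups did not overlap, although knockout replicate 2 and wild-type replicate 2 nearly met. Gsta3, an alpha class glutathione S-transferase, had 7.11, 4.82 and 10.4 CPM in knockout adenomas and 10.8, 16.3 and 28.7 CPM in wild-type adenomas (log2 fold change -1.32 ± 0.42), and here knockout replicate 2 was the lowest of all. Gstk1, the mitochondrial and peroxisomal kappa class enzyme, had 43.6, 79.1 and 40.5 CPM in knockout adenomas and 68.9, 96.7 and 95.4 CPM in wild-type adenomas (log2 fold change -0.68 ± 0.28). Papss2, which makes the sulfate donor for the sulfotransferases, was the most abundant of the 123 per kb and was likewise highest in knockout replicate 2 and lowest in the other knockout mice, with 794, 3790.2 and 663 CPM in knockout adenomas and 1581, 3076 and 1875 CPM in wild-type adenomas.

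By group, the medians were -0.37 for 18 other P450s, -0.16 for 28 genes of oxidation and reduction, -0.32 for 29 genes of conjugation, -0.64 for 7 esterases, -0.15 for 7 regulators and 0.19 for 9 transporters, of which 7 were above 0. The partners of the aryl hydrocarbon receptor were close between the genotypes, with 61.7 ± 3.87 CPM (knockout) and 57.6 ± 4.03 CPM (wild-type) for its dimer partner Arnt and 26.3 ± 4.08 CPM (knockout) and 26.3 ± 4.71 CPM (wild-type) for its target Tiparp (SD, n = 3 each).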

How the data were processed

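RNA of 6 libraries was sequenced, 3 knockout and 3 wild-type, grouped by title and genotype. The authors deposited raw counts, whole numbers for each Ensembl gene, and TopHat2 2.1.0, HTSeq 0.6.1 and the build mm10 are named per the submitters' processing notes. How strand and multiply aligned reads were handled, and which annotation was counted, are not given in the sources read here. Symbols were found for 45143 of 46078 identifiers in GENCODE M21, which also gave exon lengths, overlaps and 3′ UTRs. Coordinates are those of the deposited tables, with the first base as 1.

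Genes were filtered with filterByExpr (17254 left) and scaled by TMM (factors 0.914 to 1.09). The test was the robust quasi-likelihood F-test of edgeR 4.0.16 (R 4.3.3), with p-values adjusted after Benjamini and Hochberg and a threshold of 0.05. The common coefficient of biological variation was 0.293. Standard errors were obtained by dividing a log2 fold change by the square root of F. Near-identical copies were sought with BLAST 2.17.0 at 95% identity over at least 300 bases, and 12 members had one. Library totals of 26375035 to 38354355 counts leave at least 1137 counts over the 6 libraries for each member, and the lowest in 1 library was 34 (Cyp2c55, knockout replicate 1).

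The members, the other xenobiotic genes and the marker lists were chosen with earlier results of these data known, so members get no test as a list. Values are given in full for the member of each class with the highest level per kb and the one with the smallest p, for each receptor, and for the 4 other genes with the smallest p. Hnf4a, Papss2, Arnt, Tiparp and the markers Ang4, Rgs13 and Cd14 were chosen after their values were seen. As alternatives, each mouse was left out in turn, sex or replicate number was added as a term, scaling used DESeq2 size factors, library size alone or 8 pan-epithelial genes, and the count filter was dropped or set to 1 CPM in 3 libraries. DESeq2 1.42.0, limma-voom (limma 3.58.1), a non-robust fit and an adjusted p of 0.1 were also tried.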

Additional observations from a re-analysis of the deposited data

How the results depend on the processing

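No xenobiotic member was called under any of the 17 alternatives, each tried alone. With knockout replicate 2 left out and a threshold of 0.1 together, a pair of changes chosen after seeing the data, 3 members would pass (Sult1d1 at an adjusted p of 0.0548, Sult1b1 and Cyp2c65 at 0.0971, edgeR). The members' median log2 fold change of -0.28 ranged from -0.80 (without knockout replicate 2) to -0.06 (without knockout replicate 1) over the fits that leave out 1 mouse. Over all genes, edgeR's 16 calls became 110 with DESeq2 (46 higher and 64 lower), 28 with pan-epithelial scaling (13 higher and 15 lower) and 9 to 41 with 1 mouse left out (3 to 10 higher, 5 to 31 lower), and the sex term left 3 higher. Of the other xenobiotic genes DESeq2 called 1, Cyp4f15. Of 400 single-gene values under the alternatives, 380 kept direction and side of the threshold, 19 changed sign and 1 was newly called. With pan-epithelial scaling the log2 fold change became 0.03 for Cyp3a13, 0.15 for Por and 0.08 for Adh1, and with library size alone 0.03 for Por. Ugt2b34 became -0.10 with limma-voom and -0.11 with the sex term. With 1 mouse left out the ranges were -0.69 to 0.14 for Cyp3a13, -0.23 to 0.17 for Por, -0.94 to 0.00 for Ephx2, -0.59 to 0.33 for Ugt2b34, -0.49 to 0.16 for Adh1 and -0.01 to 0.34 for Aldh1a3. The causes were not tested. The labels do not say that equal replicate numbers pair mice, so the numbers were not taken as pairs. Deviations of same-numbered mice correlated at 0.218, 0.273 and 0.081, and those of differently numbered mice at between -0.297 and 0.179. Whether the mice were paired was not tested. With the replicate block 16 genes were called (8 higher and 8 lower) and 0 members, the members' median was -0.40, their lowest adjusted p 0.284 (edgeR), and Ugt2b34 was -0.12. At an unadjusted p below 0.05 (edgeR) the block fit had 1633 of 17254 genes and 5 members. The fit without it had 1010 genes and 4 members. The lowest member count in 1 library was 34, and what depth limits was not tested.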
